A study of Homo sapiens with 5 samples.

Results

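Genes reported in the literature as targets of the miR-25/92 family of microRNAs were followed in a pull-down made with miR-25-3p. All probes annotated to ITGA5, CDC42, TOB1, BCL2L11, CDKN1C, FBXW7, LATS2 and EZH2 were taken. Of these 8 genes, 5 had a probe in the deposited value table, with 7 probes of 14747 in all: 1 each for ITGA5, TOB1 and FBXW7 and 2 each for CDC42 and EZH2. BCL2L11, which encodes the death-promoting protein BIM, CDKN1C, which encodes the cyclin-dependent kinase inhibitor p57, and LATS2, a kinase of the Hippo pathway, had 0 probes there and were not analysed here.

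The samples were cultures of LX-2, an immortalized human line of hepatic stellate cells, which lay down scar matrix in the injured liver. All 5 samples came from LX-2 cells that received 50 pmol of a synthetic miR-25-3p duplex with a biotin label (named miR-25a-3p in one field of the labels) through Lipofectamine 2000 and were harvested 24 hours later. In 3 samples, RNA held on streptavidin beads was measured (pull-down), and in 2 samples the control, which the series design gives as total cell lysate (lysate). The labels repeat the bead step for the controls, so that their nature rests on the design text and the study's methods. Every sample had received the same duplex, and a pull-down with another duplex or with empty beads was not analysed here. Binding to miR-25-3p and other retention on the beads therefore cannot be told apart.

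A microRNA guides an Argonaute protein to mRNAs that pair with its seed, the bases near its 5′ end, mostly in 3′ untranslated regions, which lowers their translation and stability. The miR-25/92 family comes from several gene clusters and is known for restraining inhibitors of cell growth and promoters of cell death. An mRNA bound to a biotinylated duplex can be recovered with it, and the comparison asked which mRNAs were over-represented on the beads relative to the lysate they came from. Among 2370 mature names in the RefSeq microRNA table (GRCh38.p14), 6 carried the seed of miR-25-3p, from 7 hairpin loci. They are shown because this shared seed is what joins the reported targets to the transfected duplex. Bases 2 to 8, the seed, are in capitals.
miR-25-3p: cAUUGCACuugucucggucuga
miR-92a-3p: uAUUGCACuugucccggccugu
miR-92b-3p: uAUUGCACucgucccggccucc
miR-32-5p: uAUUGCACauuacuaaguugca
miR-363-3p: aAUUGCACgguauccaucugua
miR-367-3p: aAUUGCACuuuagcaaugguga

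The mature miR-25-3p lies on chromosome 7 at chr7:100093571-100093592, on the minus strand. Outside the seed the family diverges: of the 14 bases that follow it, miR-92a-3p shares 11 with miR-25-3p by position, miR-92b-3p 9, miR-32-5p 6, miR-367-3p 5 and miR-363-3p 2. A target reported for one of these microRNAs therefore shares the seed pairing with miR-25-3p and not always the rest. The perfect complement of the seed reads GUGCAAU in an mRNA. Untranslated regions were not used here, so sites in the members were not located.

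Values are the authors' normalized expression values on a log2 or log2-like scale, in which 1 unit is a 2-fold change if it is log2. Folds are given on that reading, and under a variance-stabilizing transform they would understate the change of dim probes, while 5 of the 7 member probes lay in the dimmer 50% of all probes. All arrays were brought to nearly the same distribution (medians of 9.01 to 9.03), so a probe is higher or lower only relative to the rest of the array, and captured amounts are not measured. Pearson correlations across probes were 0.9625 to 0.9854 between pull-down arrays, 0.9802 between lysate arrays and 0.9016 to 0.9511 between groups. Pull-down replicate 1 stood apart from the other pull-down arrays, with correlations of 0.9632 and 0.9625 to them against 0.9854 between them. Markers of stellate cells ranged widely, from VIM, which many cells express, at 14.05 to 14.33 on its brighter probe and ACTA2 at 9.89 to 11.06 down to COL1A2 at 7.88 to 8.95 and PDGFRB at 7.96 to 8.67. Of the markers of other liver cells, the hepatocyte gene SERPINA1 lay at 7.79 to 7.87 and ALB at 8.17 to 9.23, where the lowest value of any probe was 7.57 to 7.77 by array. The macrophage marker CD14 lay at 7.99 to 8.26, while CD68, which many cells express, lay at 10.46 to 12.25 on its brighter probe. SOX9, on the cholangiocyte list, lay at 8.85 to 9.56. Of these marker lists, 2 of 5 hepatocyte, 2 of 5 macrophage, 1 of 4 cholangiocyte and 0 of 4 endothelial genes had a probe, and limma called 0 of their probes, with 1 lower at an unadjusted p under 0.05.

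Signs throughout are those of pull-down minus lysate, with groups taken from the sample titles. This is opposite to the direction in the study's text, whose named candidate targets, described there as enriched, are lower in the pull-down on these values. The legend of the study's volcano plot, however, gives a negative fold-change limit for pull-down compared with lysate. Of those genes 6 were measured, and 7 of their 7 probes had a lower mean in the pull-down. Limma called 6 of these probes lower, against 7.09% of all probes. The study chose these genes from this same comparison, so calls and a shared direction were fixed by that choice. Each direction below therefore turns if the reading as enriched is taken.

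Reported targets did not move together in either direction. ITGA5 was lower in the pull-down, 1 of the 2 CDC42 probes was higher, and the probes of TOB1, FBXW7 and EZH2 did not pass the test. In limma's moderated fit over all probes, with Benjamini-Hochberg adjustment over the whole table, 1 of 7 member probes passed an adjusted p of 0.05 upwards and 1 downwards. The same threshold was passed by 7.64% of the whole table upwards and 7.09% downwards. With a change of at least 2-fold as well, 0 member probes were higher and 1 was lower, against 2.81% and 3.09% of all probes. At an unadjusted p under 0.05, 1 was higher and 2 were lower, against 16.8% and 14.9% of all probes. The median log2 fold change of the 7 probes was 0.13, and that of all probes was 0.04. The upper end of the 95% confidence interval lay below a rise of 1 unit for 7 of 7 probes. With the sign turned this held for 6 of 7, since ITGA5 would then be higher by 1.30 (95% interval 0.62 to 1.97), and 1 probe would be at least 2-fold higher and 0 lower.

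**Figure D1:**
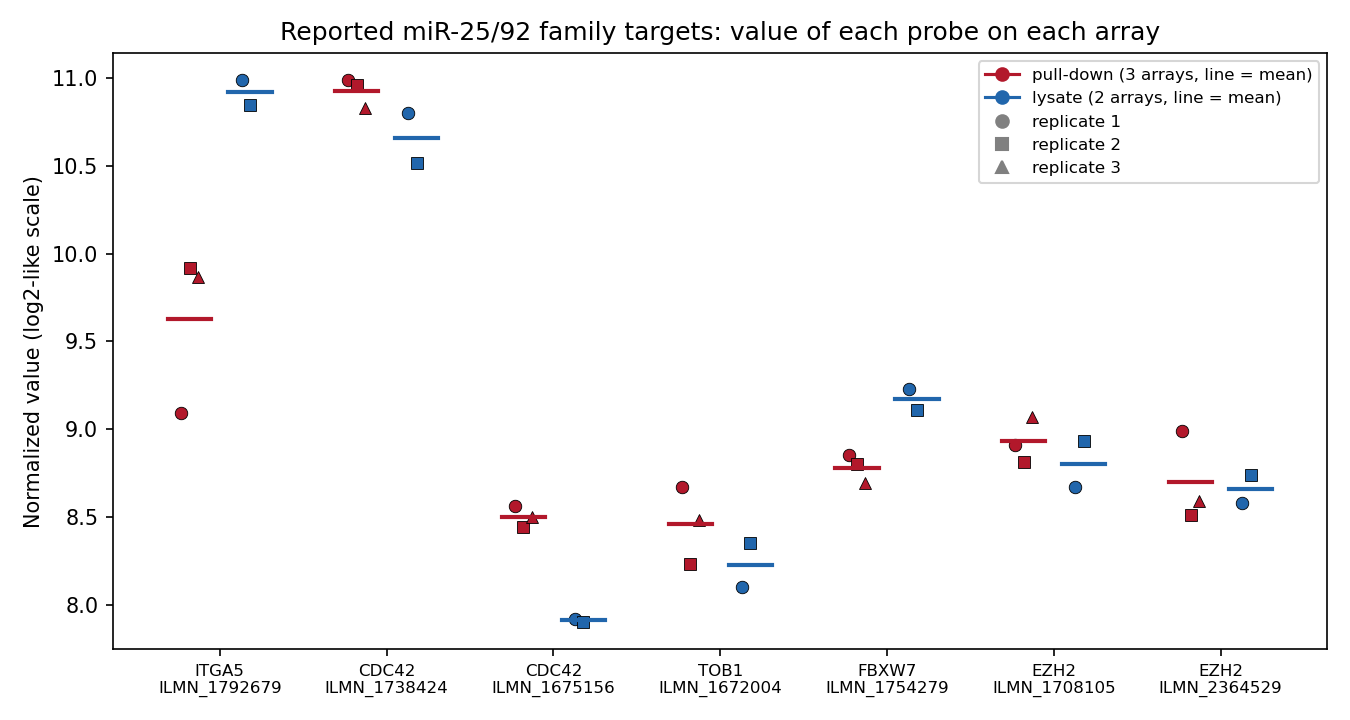
Normalized value (log2-like scale) of each of the 7 member probes on each array, with pull-down arrays in red, lysate arrays in blue, a symbol for each replicate number and a line at each group mean. The groups are apart for ITGA5, FBXW7 and both CDC42 probes, and they overlap for TOB1 and both EZH2 probes.

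ITGA5 encodes the α5 chain of the fibronectin receptor, through which stellate cells hold and sense their matrix. Its probe (ILMN_1792679) measured 9.09, 9.92 and 9.87 in pull-down replicates 1 to 3, against 10.99 and 10.85 in the lysates. Every pull-down value lay below both lysate values, by 0.93 at the closest, while pull-down replicate 1 lay 0.83 below the highest of its group. The means were 9.63 ± 0.47 (SD, n = 3) and 10.92 ± 0.10 (SD, n = 2). The pull-down was thus 2.45-fold lower (log2 fold change -1.30, SE 0.27, 95% interval -1.97 to -0.62, limma adjusted p = 0.034). Of all probes, 1.86% had a log2 fold change as low as that of ITGA5 or lower. Without pull-down replicate 2 or 3 the value was -1.44 and -1.42, and the call was lost (limma adjusted p = 0.064 and 0.0622). Over the whole table those fits called 256 and 447 probes higher and 131 and 465 lower, against 1126 and 1046 with all arrays. Without lysate replicate 1 or 2, which leaves 1 lysate array, the value was -1.22 and -1.37, and the call was lost in both fits. Without pull-down replicate 1 the value was -1.03 (limma adjusted p = 0.0164). With the replicate number as a block it was again -1.42 (limma adjusted p = 0.0934). The block takes up pull-down replicate 3, the only array of its number, and so repeats the value without it. The dimmer CD68 probe gave -1.17 (limma adjusted p = 0.0745), and 1 of 12 probes of stellate markers was called lower, TAGLN at -1.12 (limma adjusted p = 0.0448). The brighter TAGLN probe gave -0.23 (limma adjusted p = 0.642), and COL1A1 gave -1.64 (limma adjusted p = 0.24) with overlapping groups and its lowest value in pull-down replicate 1. The part of these markers in the ITGA5 result was not tested.

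CDC42 encodes a small GTPase that organizes actin and cell polarity. Both of its probes carry the same transcript accession (NM_001039802). Probe ILMN_1738424 measured 10.99, 10.96 and 10.83 in the pull-down and 10.80 and 10.52 in the lysate. All pull-down values lay above both lysate values, but by only 0.03 at the closest. The log2 fold change was 0.27 (SE 0.14, 95% interval -0.07 to 0.60, limma adjusted p = 0.239). Probe ILMN_1675156 measured 8.56, 8.44 and 8.50 in the pull-down and 7.92 and 7.90 in the lysate, with a gap of 0.52 between the groups. This corresponds to a 1.50-fold rise (log2 fold change 0.59, SE 0.11, 95% interval 0.33 to 0.85, limma adjusted p = 0.0235).

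The higher CDC42 probe was a dim one. Its mean lay in the lowest 25% of all probes, in which 0.976% were called higher and 0.895% lower, and the lowest value of any probe was 7.57 on both lysate arrays and 7.76 to 7.77 on the pull-down arrays. Its lysate values were thus 0.35 or less above the floor of their arrays, and the part of that floor in the difference was not tested. The call was lost without pull-down replicate 2 or 3 (limma adjusted p = 0.0695 and 0.076), where fewer probes passed over the whole table too. With any of these or either lysate array left out, the values were 0.58 to 0.62. Leaving out either lysate array, which leaves 1, lost the call too. Without pull-down replicate 1 the call was kept, at 0.56 (limma adjusted p = 0.0313). With the replicate number as a block the value was 0.59 (limma adjusted p = 0.157). That fit takes up pull-down replicate 3, the only array of its number, and so repeats the value without it. The probes of one gene can read different transcript ends, so the probes were compared within each array. The value of ILMN_1738424 minus that of ILMN_1675156 was 2.43, 2.52 and 2.33 in the pull-down and 2.88 and 2.62 in the lysate. The log2 fold changes differed by 0.32 (95% interval of the difference -0.65 to 0.00, limma adjusted p = 0.252 over 3179 probe pairs of the same gene). The difference did not pass the test, which 3.84% of pairs did, while 3.02% differed by at least 2-fold, and the median size over all pairs was 0.18.

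**Figure D2:**
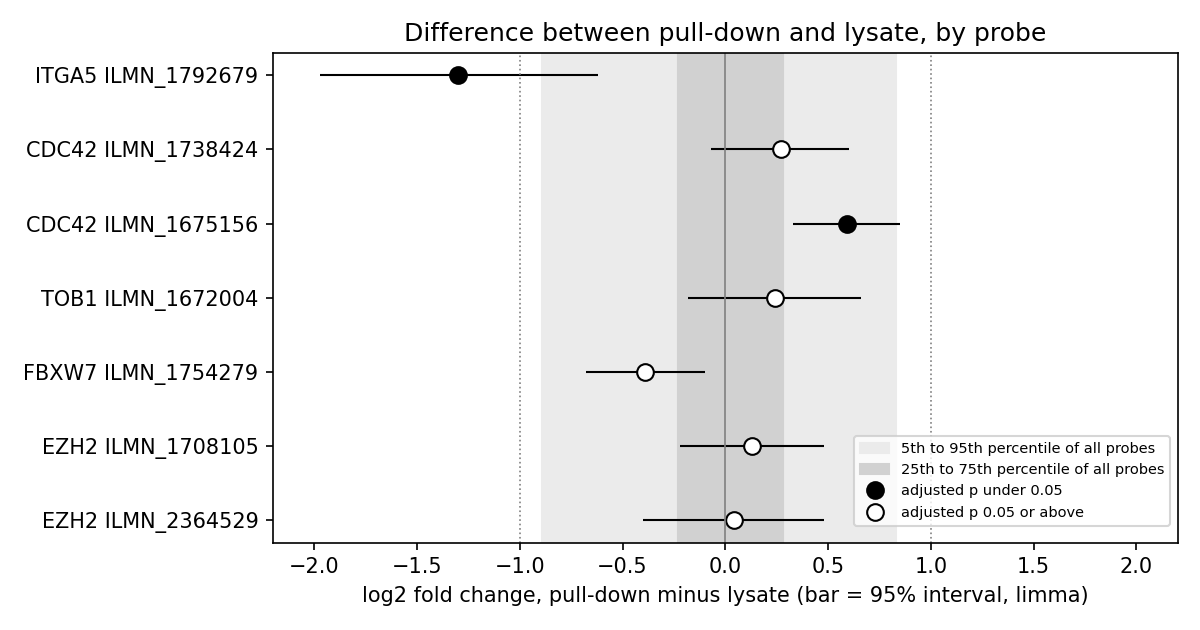
Log2 fold change (pull-down minus lysate) of each member probe with its 95% interval from limma, filled where the adjusted p is under 0.05, over the spread of all 14747 probes in grey. ITGA5 at -1.30 lies below the 5th percentile of all probes (-0.89), and the other 6 probes lie between the 5th and the 95th percentile (0.83).

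FBXW7 encodes the F-box protein by which the SCF ubiquitin ligase recognizes MYC, cyclin E and the Notch intracellular domain for degradation. Its probe (ILMN_1754279) measured 8.85, 8.80 and 8.69 in the pull-down and 9.23 and 9.11 in the lysate. The groups did not overlap, with a gap of 0.26. The log2 fold change was -0.39 (SE 0.12, 95% interval -0.68 to -0.10), which did not pass after adjustment (limma adjusted p = 0.0779, unadjusted p = 0.0161). It passed when arrays were weighted by their quality, at -0.42 (limma adjusted p = 0.0405), where pull-down replicate 1 had a weight of 0.35 and the others 1.12 to 1.60.

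Separation of the groups was common in these data. Both CDC42 probes lay wholly above the lysate and the ITGA5 and FBXW7 probes wholly below it, that is 2 and 2 of 7, where 29.0% and 22.4% of all probes did so and 51.5% were separated in either direction.

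TOB1 encodes an antiproliferative protein that brings the CCR4-NOT deadenylase to mRNAs. Its probe (ILMN_1672004) measured 8.67, 8.23 and 8.48 in the pull-down and 8.10 and 8.35 in the lysate. The groups overlapped, since pull-down replicate 2 lay below lysate replicate 2. Its values were only 0.47 to 0.91 above the lowest value of their arrays, and whether the transcript was detected was not examined. The log2 fold change was 0.24 (SE 0.17, 95% interval -0.18 to 0.66, limma adjusted p = 0.393), which covers 0.882- to 1.58-fold.

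EZH2 encodes the methyltransferase of the Polycomb repressive complex PRC2, which places the repressive mark on histone H3 lysine 27. Probe ILMN_1708105 measured 8.91, 8.81 and 9.07 in the pull-down and 8.67 and 8.93 in the lysate. Probe ILMN_2364529 measured 8.99, 8.51 and 8.59 in the pull-down and 8.58 and 8.74 in the lysate. In both probes the groups overlapped, and the highest array was pull-down replicate 3 in the first and pull-down replicate 1 in the second. Values of the first probe were 1.05 to 1.36 above the lowest value of their arrays and those of the second 0.74 to 1.23. Detection was not examined. The log2 fold changes were 0.13 (95% interval -0.22 to 0.48, limma adjusted p = 0.58) and 0.04 (95% interval -0.40 to 0.48, limma adjusted p = 0.905). Their sign was not stable, and the second fell to -0.11 without pull-down replicate 1. The difference between the probes was 0.09 (95% interval -0.34 to 0.52, limma adjusted p = 0.836).

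Other genes reported as targets of the family were as mixed. Of 21 such genes on a separate list, 9 had a probe, with 15 probes in all. Limma called 0 of these probes in either direction, against 7.64% higher and 7.09% lower of all probes. At an unadjusted p under 0.05, 1 was higher and 2 were lower, against 16.8% and 14.9% of all probes. With 15 probes these counts are too few for a result about the list. The median log2 fold change of the list was -0.08. KLF2, a transcription factor of the Krüppel family, was the highest, at 11.55, 11.49 and 11.16 in the pull-down and 10.98 and 10.77 in the lysate (log2 fold change 0.52, limma adjusted p = 0.0884). DKK3, a secreted protein of the Dickkopf family, was the lowest, and its probes gave -0.72 and -0.67 (limma adjusted p = 0.128 and 0.108). The remaining genes, ATP2A2, MYLIP, KLF4, MAP2K4, ITGAV, SMAD7 and KAT2B, lay between -0.34 and 0.26.

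The partners of the members by function were then set beside them. On 8 lists, 104 genes had a probe, with 150 probes. Of these probes 9 were called higher and 9 lower, 6.0% in each direction against 7.64% and 7.09% of all probes, and the median log2 fold change was 0.10. A share this near to that of the whole table is no result about the lists, and the genes below are given as values.

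Among integrins and adhesion proteins, the partners of ITGA5, 0 of 22 probes were called higher and 2 lower, with a median of -0.22. Probes of VCL, which encodes the focal adhesion protein vinculin, gave -1.23 (limma adjusted p = 0.014) and -1.14 (limma adjusted p = 0.0545). Those of the focal adhesion protein zyxin, ZYX, gave -1.16 (limma adjusted p = 0.0465) and -0.39 (limma adjusted p = 0.0815). ITGB1, the β chain with which the α5 chain pairs, gave -1.33 (limma adjusted p = 0.0877) and -0.48 (limma adjusted p = 0.182). Its first probe measured 10.69, 12.08 and 11.78 in the pull-down and 13.01 and 12.69 in the lysate, again with pull-down replicate 1 the lowest. ITGB5 was the highest at 0.35 (limma adjusted p = 0.307).

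Among CDC42 relatives and effectors, 2 of 23 probes were called higher and 1 lower. RHOA, a related GTPase, measured 14.06, 13.96 and 13.87 in the pull-down and 13.44 and 13.33 in the lysate (log2 fold change 0.58, limma adjusted p = 0.031). The effector gene CDC42EP1 gave 0.69 (limma adjusted p = 0.0255) on one probe and -0.18 (limma adjusted p = 0.462) on the other. The scaffold gene IQGAP1 was lower at -0.76 (limma adjusted p = 0.0438).

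The CCR4-NOT complex and its partners, to which TOB1 binds, held the most calls of these lists, with 1 of 23 probes higher and 5 lower. Of all probes, 7.64% were called higher and 7.09% lower. The list as a whole did not lean downwards: 13 of the 23 probes lay above 0, with a median log2 fold change of 0.13. The subunit genes CNOT2 (-1.25, limma adjusted p = 0.0104) and CNOT3 (-1.20, limma adjusted p = 0.0297) and the ubiquitin ligase gene CNOT4 (-1.10, limma adjusted p = 0.0147) were lower. CNOT2 measured 10.80, 10.52 and 10.53 in the pull-down and 11.94 and 11.80 in the lysate. The second probe of CNOT4 gave 0.14 (limma adjusted p = 0.42). PABPC1, the poly(A)-binding protein gene, was lower on both probes at -0.95 and -0.86 (limma adjusted p = 0.0219 and 0.0354). CNOT11 was the one subunit called higher, at 1.04 (limma adjusted p = 0.0168).

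Of the partners of FBXW7 and EZH2, 3 probes were called higher and 1 lower. SKP1, the adaptor that joins F-box proteins such as FBXW7 to the SCF ligase, was higher at 1.25 (limma adjusted p = 0.0143), with 11.37, 11.04 and 10.90 in the pull-down and 9.78 and 9.93 in the lysate, and its second probe gave 0.80 (limma adjusted p = 0.0661). SKP2, another F-box protein, was higher at 0.56 (limma adjusted p = 0.0248) on one probe and gave 0.49 and 0.19 on the others. SUZ12, a core subunit of PRC2, was higher at 0.79 (limma adjusted p = 0.0171), and EPOP, an accessory subunit, was lower at -0.47 (limma adjusted p = 0.0394). In all, 2 of 18 probes of the SCF list were called higher and 0 lower, and 1 of 15 of the PRC2 list in each direction.

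On the lists around the genes with no probe, 3 of 49 probes (6.12%) were called higher and 0 lower, against the 7.64% and 7.09% above. In the BCL2 family 0 of 24 probes were called, with PMAIP1 the highest at 0.96 (limma adjusted p = 0.0979) and BAX, a pore-forming member, the lowest at -0.45 (limma adjusted p = 0.0516). Their second probes gave 0.71 and -0.09 (limma adjusted p = 0.0894 and 0.692). Of the CDK inhibitors, 1 of 7 probes was called, CDKN2A at 1.23 (limma adjusted p = 0.0197), whose second probe gave 0.28 (limma adjusted p = 0.164). In the Hippo pathway, 2 of 18 probes were called higher and 0 lower, the scaffold genes SAV1 at 0.57 (limma adjusted p = 0.031) and MOB1A at 0.58 (limma adjusted p = 0.0301). The second probe of MOB1A gave 0.20 (limma adjusted p = 0.522), with overlapping groups. Without lysate replicate 1, limma called 0 probes of the whole table.

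**Figure D3:**
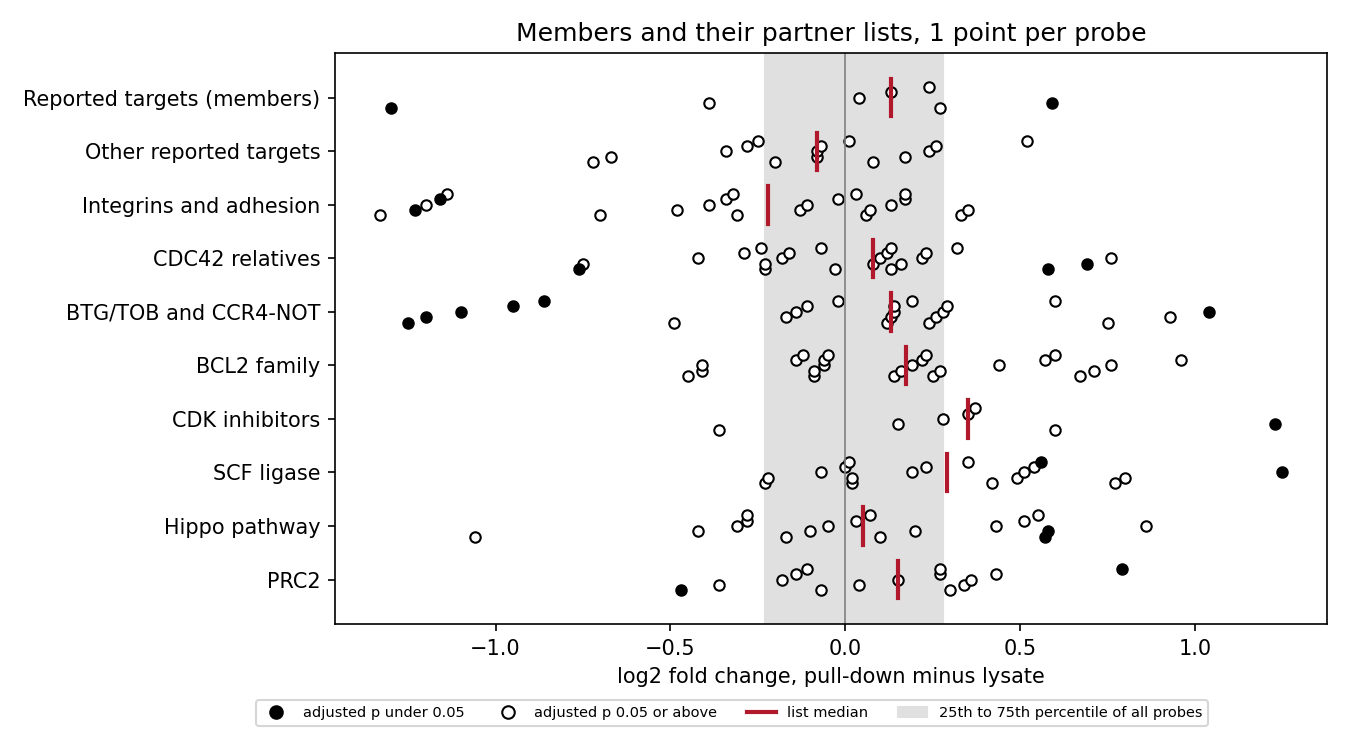
Log2 fold change (pull-down minus lysate) of every probe of the 5 measured reported targets, of the other reported targets and of 8 partner lists, filled where the adjusted p is under 0.05, with list medians in red and the middle 50% of all probes in grey. List medians run from -0.22 for integrins and adhesion proteins to 0.35 for CDK inhibitors.

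The probes most like the called members were sought by the Euclidean distance over the 5 arrays, after each probe was centred on its own mean. Closest to ITGA5 were SDAD1 (distance 0.11), CNOT3 (0.18) and ELOVL5 (0.19). SDAD1 measured 10.03, 10.89 and 10.84 in the pull-down and 11.93 and 11.69 in the lysate, the same layout as ITGA5 with pull-down replicate 1 lowest. Closest to CDC42 probe ILMN_1675156 were MKRN2 (0.04), DPY30 (0.05) and SNRPD2 (0.05), with log2 fold changes of 0.56, 0.57 and 0.60.

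**Figure D4:**
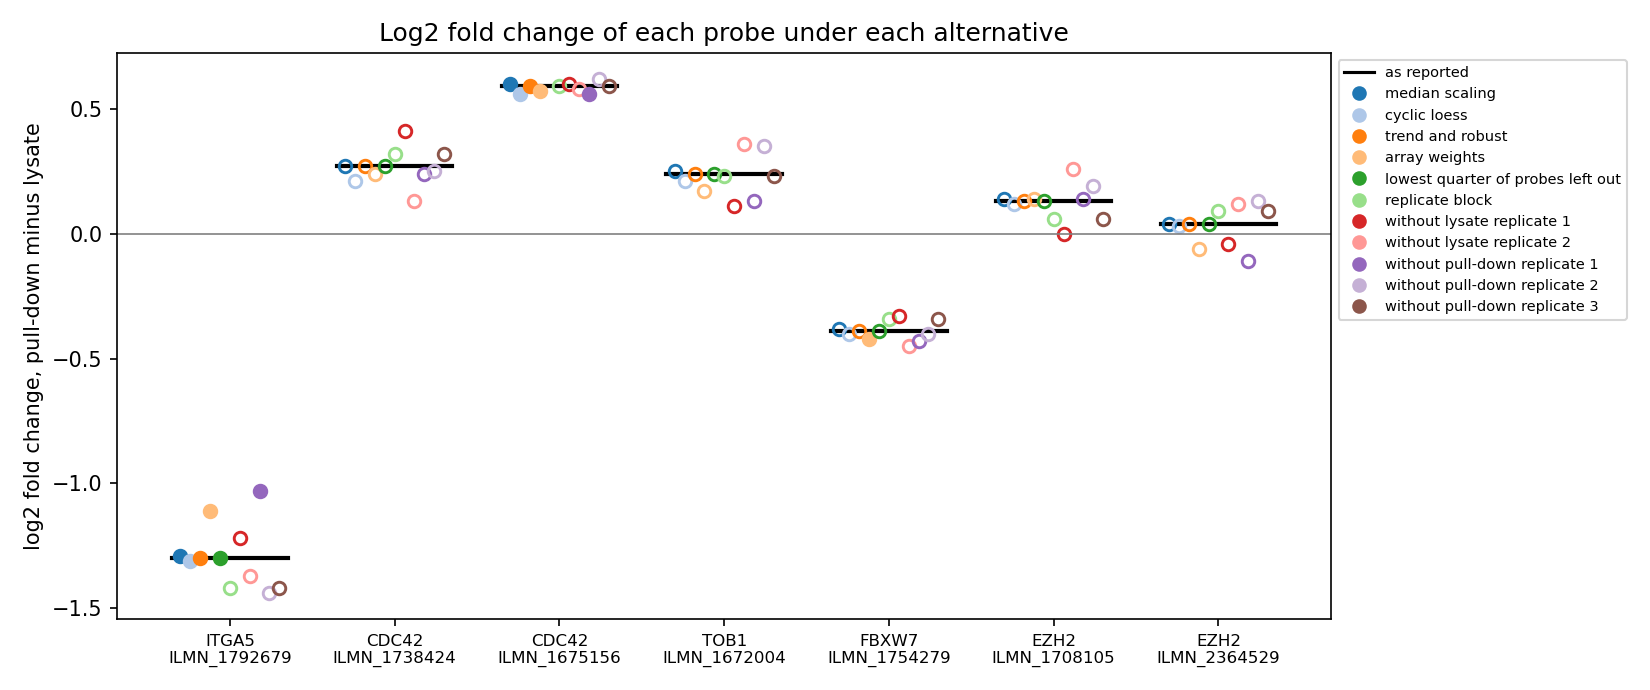
Log2 fold change (pull-down minus lysate) of each member probe under 11 alternatives, filled where the adjusted p is under 0.05, with the reported value as a black line. ITGA5 stays between -1.44 and -1.03 and CDC42 probe ILMN_1675156 between 0.56 and 0.62, while both EZH2 probes lie near 0 and cross it in some alternatives.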

How the data were processed

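RNA from LX-2 cells was hybridized to Illumina HT-12 chips as labelled cRNA. The authors exported the values from GenomeStudio and normalized them with lumi, which gave the deposited log2 (or similar) values, and the submitters' notes name limma too. Whether lumi's variance-stabilizing transform took the place of log2, and which tool versions were used, was not stated in the sources read. That transform would understate changes of dim probes. The study describes its probes as detected above background, with no limit given. Raw signals were also deposited, but the names of their 10 columns match no label, and they were left out, so detection was not examined. A further control array was left out by the study for low signal.

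Probes were named by GEO's platform annotation (1 symbol for 11970 probes, several for 1, none for 2776), with symbols from RefSeq. Pull-down (3) and lysate (2) were compared with limma 3.58.1 in R 4.3.3 (lmFit, eBayes, two-sided, 3 residual and 2.75 prior degrees of freedom, median SE 0.15), with Benjamini-Hochberg adjustment over 14747 probes. Probe pairs of a gene were compared in the same way on their differences per array. An exact permutation test of 3 against 2 cannot go below 0.1 and was not used. On simulated data with 14747 probes the fit recovered 70 of 100 changes of 1 and 97 of 100 of 2 on the log2 scale, with 15 false calls. No other probes were changed there and the noise was independent and normal, while 2172 probes were called in these data. The recovery rates need not hold here. Text names all probes of the members, and from each list the genes with a called probe or the highest and lowest, and the 3 genes closest to each called member probe. Members, lists and tests were chosen with earlier results of these data known. Replicates are independent biological ones per the study's methods. There, control lysate and bead input came from the same transfected cells, but which arrays pair is not stated. The main fit treats all arrays as independent, so its SEs, intervals and adjusted p-values take no account of that pairing. The alternatives were median scaling, cyclic loess, an intensity trend with robust fitting, array weights, leaving out the lowest 25% of probes, a replicate block, each array left out and, for calls, a test against a 2-fold change.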

Additional observations from a re-analysis of the deposited data

How the results depend on the processing

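The 7 member probes under up to 11 alternatives gave 76 values, of which 61 kept direction and side of the threshold. A call was lost in 10 values and gained in 1. ITGA5 kept its call in 6 of 11 alternatives and CDC42 probe ILMN_1675156 in 5 of 10. The EZH2 probes changed sign in 4: ILMN_2364529 was -0.06 with array weights, -0.04 without lysate replicate 1 and -0.11 without pull-down replicate 1, and ILMN_1708105 fell to just under 0 (0.00) without lysate replicate 1. With 1 array left out, they ranged from -0.11 to 0.13 and from 0.00 to 0.26. Member probes called higher were 0 and lower 0 with the replicate block and with the test against a 2-fold change, 0 higher without the lowest 25% of probes (the called CDC42 probe is among those left out), and 2 lower with array weights. Leaving out 1 array gave 0 to 1 higher and 0 to 1 lower, and a median log2 fold change of 0.00 to 0.19. Over all probes, leaving out 1 array gave 0 to 1244 called higher and 0 to 1145 lower, where 0 in each direction came without lysate replicate 1 (1477 higher and 1481 lower at an unadjusted p under 0.05). With 1 lysate array left, its spread is assumed to be that of the pull-down arrays.

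The labels share numbers 1 and 2 between groups, but with 2 pairs the pairing cannot be settled. Same-numbered arrays deviated from their group means with correlations of 0.039 and -0.433. The highest values joined arrays of different numbers, pull-down 2 with lysate 1 (0.433) and pull-down 3 with lysate 2 (0.482). The 2 lysate arrays deviate as mirror images, so each pull-down array gives 1 value with both signs. Whether a block by label number joins arrays of the same culture was not tested. With the replicate block, 53 probes were called higher and 162 lower, against 1126 and 1046 without it. No lysate array has the number 3, so the block takes up pull-down replicate 3, and its log2 fold changes equal those without that array. The EZH2 probes differed by -0.03 in both of these fits, and by -0.03 to 0.25 when 1 array was left out. For CDC42 that range was -0.45 to -0.19. Why the differences moved between the other fits was not tested.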
